A study of Mus musculus with 16 samples.

Results

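The respiratory chain of the mouse uterus was read here through 92 genes, those of the 34797 gene names on the array that start with Nduf, Uqcr or Atp5, with Sdh followed by a, b, c or d, or with Cox followed by 4, 5, 6, 7 or 8. A total of 90 of the 92 entered the test, among 25892 genes in all, and Cox7b2 and Cox8c did not, because their probes stayed at background. By their known roles the 90 comprise 36 subunits of complex I, 4 of complex II, 8 of complex III, 17 of complex IV and 15 of complex V, and 10 assembly factors and other genes that the name rule also catches.

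Complexes I to IV pass electrons from NADH and succinate to oxygen. Complexes I, III and IV pump protons across the inner mitochondrial membrane as they do so, and complex V, the ATP synthase, uses the returning protons to make ATP. Most subunits are encoded in the nucleus and imported, and a small set in the core of complexes I, III, IV and V is encoded by mitochondrial DNA, so that assembly draws on both genomes. Several complex IV subunits exist as a general isoform and as an isoform restricted to muscle, heart, lung or testis. In the uterus, estradiol acting through estrogen receptor α (ERα) starts growth of the epithelium and swelling of the tissue within hours.

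The samples were uteri of mice whose ovaries were removed at an age of 4 weeks and which were kept 2 to 3 weeks without ovarian hormone on normal chow. Mice were wild type (WT) or carried Arg260-ERα, a form of the receptor named for an arginine, and the labels do not say how that arginine was changed. Each genotype received castor oil without hormone (PLB, 0 µg/kg) or 8 µg/kg 17b-estradiol (E2) under the skin, and RNA was taken 6 h later. These 4 groups have 4 one-colour arrays each from 200 ng of total RNA, and the p-values measure the spread between these samples, since no label says that they are separate animals.

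Each array held 59305 spots besides controls, and between 36505 and 41890 of them exceeded background clearly, with none saturated. Replicate arrays correlated at 0.980 to 0.993 across genes, and the first principal component, with 71.8% of the variance, separated E2 from PLB. On the second component, with 5.11%, replicate 2 of WT PLB and replicate 3 of Arg260 PLB lay far out, and without Arg260 PLB replicate 3, or without both, the complex V median change in Arg260 was 0.45 in place of 0.54. On Arg260 PLB replicate 3 the mean level of 5 macrophage markers was 3.31, against 1.36 to 1.67 on the other Arg260 PLB arrays, and their part was not tested. Esr1, the gene of ERα, read 3.53 to 3.78 on the WT PLB arrays and 3.57 to 3.88 on the Arg260 PLB arrays, and its probe gives no check of the Arg260 label. Levels throughout are log2 signals of a gene's brightest probe minus the 75th percentile of its array, changes are differences of group means on that scale, and the threshold for a call is an adjusted p of 0.05 (limma, Benjamini-Hochberg over all 25892 genes). A signal per tissue does not tell fewer cells of a type from less RNA per cell.

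By the scaling used throughout, most respiratory chain transcripts were called higher in both genotypes after 6 h of E2. By quantile normalisation and in the submitters' series table, both given below, those called higher were not a majority. The counts that follow here are by the scaling used throughout. In WT, 66 of the 90 genes were called higher and 10 lower, against 31.9% and 31.7% of all genes tested. In Arg260, 64 were called higher and 9 lower, against 33.6% and 30.7% of all genes. The median change of the 90 genes was 0.47 in WT and 0.48 in Arg260, and that of all genes was -0.02 and 0.02. The same genes made up most of both counts, with 63 called higher and 9 called lower in both genotypes, and both comparisons were fitted with all 16 arrays.

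The size of this shift rests on how arrays are made comparable. The 95th percentile of signal lay 3.61 to 3.79 log2 units over the 75th on the 8 PLB arrays and 4.11 to 4.22 over it on the 8 E2 arrays, with no overlap, and the 80 subunit probes had a median level of 4.70. Quantile normalisation, which gives every array the same distribution, left WT with 37 genes higher and 25 lower (median 0.12), against 30.9% and 33.9% of all genes. It left Arg260 with 33 and 29 (36.7% and 32.2%, median 0.10), near the 31.7% and 33.5% of all genes. In the submitters' series table the counts were 36 and 22 for WT, against 32.1% and 33.9% of all genes, and 32 and 27 for Arg260 (35.6% and 30%), near the 32.7% and 33.9% of all genes. With arrays scaled on 8 spike-in control probes, an alternative added after the data were seen, WT had 64 genes higher and 9 lower, against 30.6% and 27.8% of all genes, and Arg260 70 and 7, against 39.1% and 22.3%. Of all genes called in Arg260, 63.7% were higher under that scaling and 52.2% under the 75th percentile. The mean of those control probes was 2.18 to 2.65 over the 75th percentile on PLB arrays and 2.08 to 2.45 on E2 arrays. Scaling on the array median moved the median change of all genes in WT from -0.02 to 0.12 and in Arg260 from 0.02 to 0.15, and spike-in scaling moved that in Arg260 to 0.21.

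**Figure D1:**
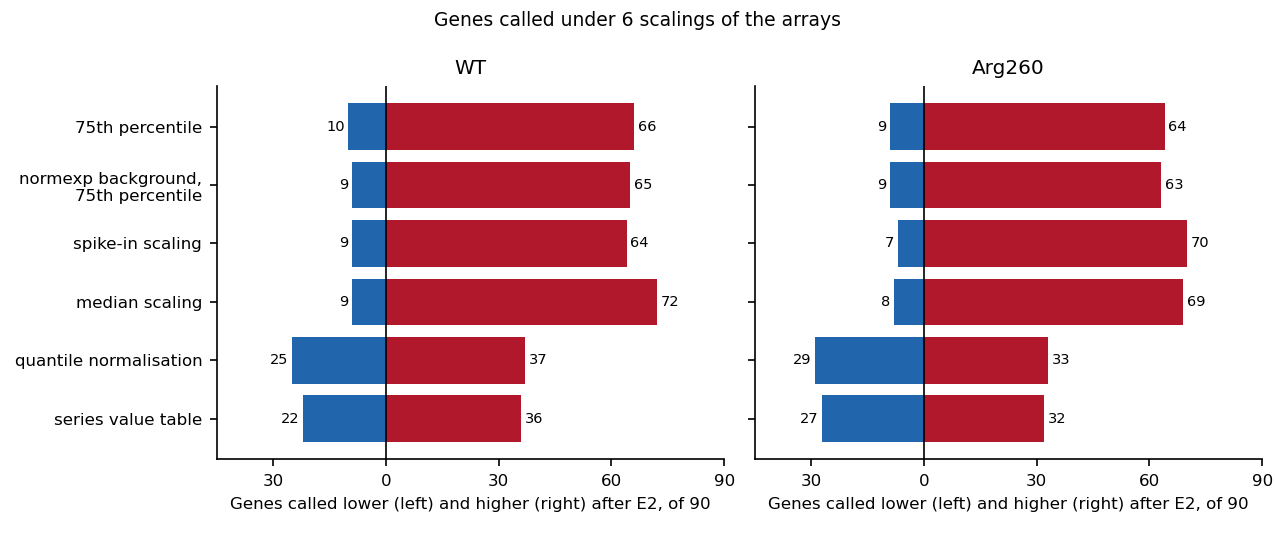
Genes of the 90 called lower (bars to the left) and higher (bars to the right) after E2 in WT and in Arg260 under 6 ways of scaling the arrays. Scaling on the 75th percentile (with either background) or the median and on spike-in probes gives 63 to 72 genes higher and 7 to 10 lower, and quantile normalisation and the series table give 32 to 37 higher and 22 to 29 lower.

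Calls that did not depend on this choice are therefore named as such below. Under all 6 scalings, 30 of the 90 genes were called higher and 7 lower in both genotypes, and 10 were called in opposite directions by different scalings in both genotypes. The 30 include Ndufaf4, Ndufab1 and Ndufv2 of complex I and its assembly, Sdhb of complex II, Uqcrq and Uqcrfs1 of complex III, Cox5a and Cox5b of complex IV, and Atp5b and Atp5g1 of complex V. The 7 are Ndufa6, Ndufv3, Cox6b2, Cox7a1, Cox7a2l, Atp5s and Atp5sl.

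**Figure D2:**
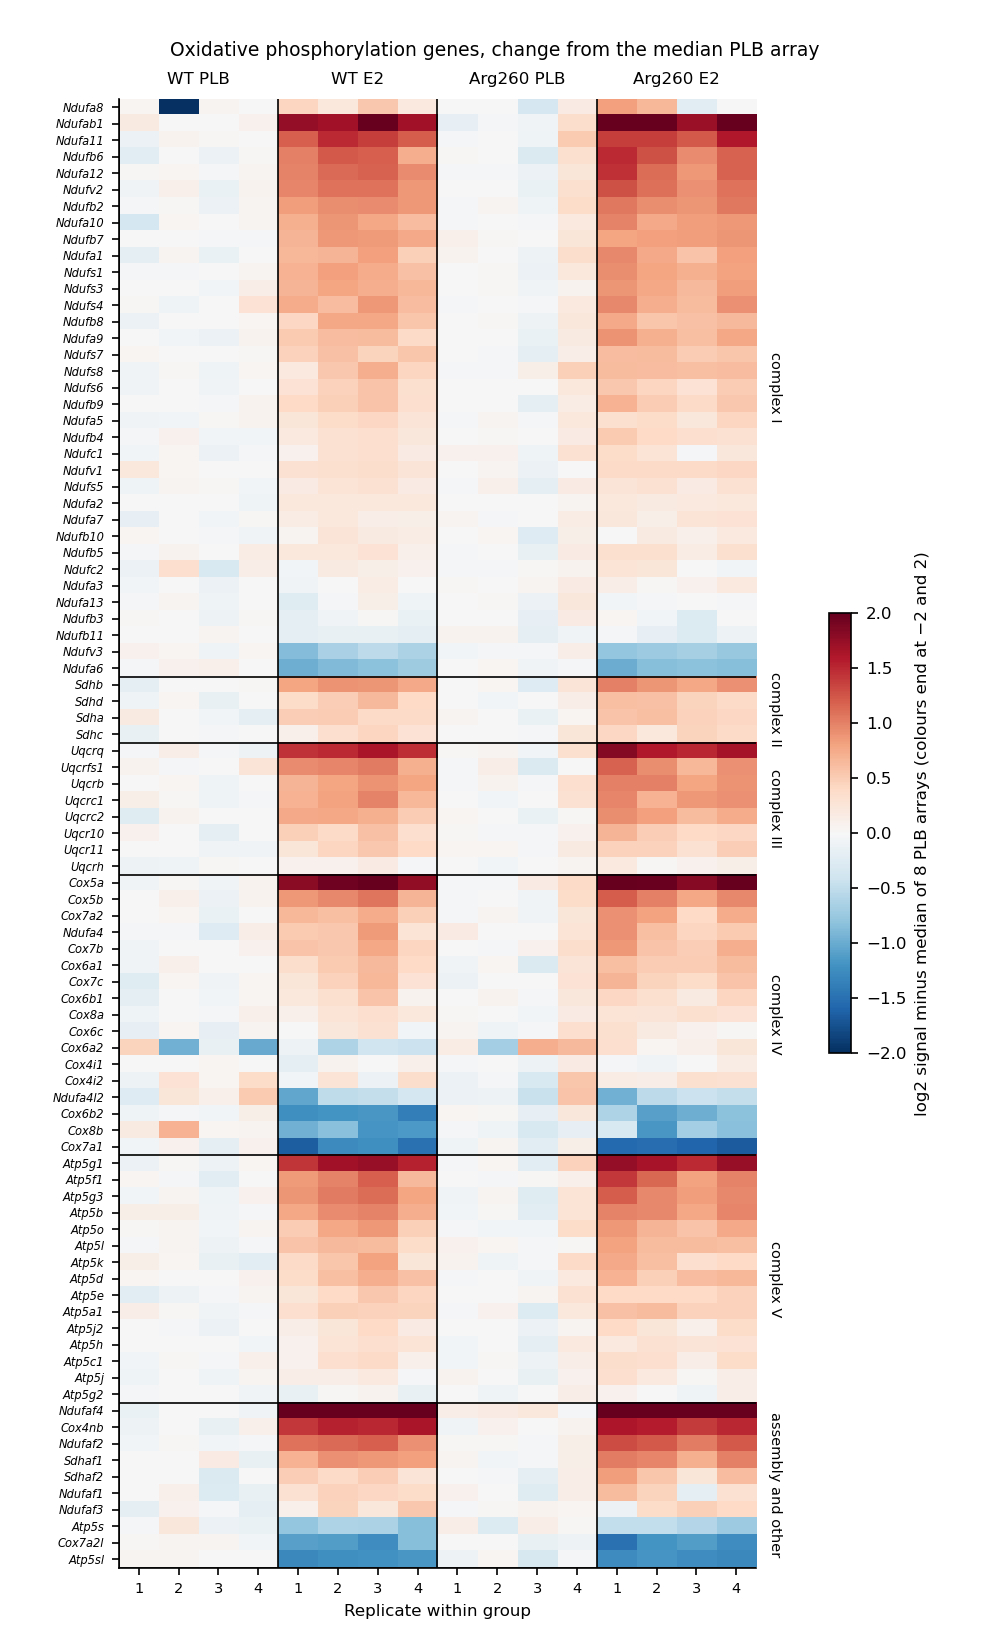
Log2 signal of 89 of the 90 genes (rows, by complex and by their change in WT) on each of the 16 arrays (columns, replicates 1 to 4 of each group), as the difference from that gene's median over the 8 PLB arrays, with colours ending at -2 and 2. The E2 columns are red for most rows of every complex, while blue rows include Cox7a1, Cox8b and Cox6b2 in complex IV and Atp5sl at the bottom, and the dark cell of Ndufa8 is WT PLB replicate 2 at -8.16.

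Upstream sequence is shown for 6 of the genes whose call was the same under every scaling and in both genotypes, 3 called higher and 3 called lower, so that the stretch before each start can be read beside the changes described next. The windows lie at chr4:24897833-24898082 (Ndufaf4), chr17:56717512-56717761 (Ndufa11), chr9:57520982-57521231 (Cox5a) and chr7:30183921-30184170 (Cox7a1) on the forward strand, and at chr7:4753095-4753344 (Cox6b2) and chr15:82354292-82354541 (Ndufa6) on the reverse strand. Each line gives the 250 bases before the annotated start (RefSeq, GRCm38.p6), 5′ to 3′ on the gene's strand, in lower case with motif matches in capitals. Capitals mark a match to the NRF1 motif in Ndufaf4 and Ndufa11 and a CCAAT box, on either strand, in Cox7a1, Cox6b2 and Ndufa6, and no searched motif was found in the window of Cox5a. The match starts 113 bases before the start in Ndufaf4, 60 in Ndufa11 and 52 in Ndufa6, and there are 2 matches each in Cox7a1 (137 and 74) and Cox6b2 (206 and 9). The 6 genes were not picked by a rule, and their motifs do not stand for all genes of the same call. Of 25 windows of genes called higher under every scaling in both genotypes, 3 held the NRF1 letters and 8 a CCAAT box. A CCAAT box was in 6 of the 8 windows of genes called lower.
Ndufaf4: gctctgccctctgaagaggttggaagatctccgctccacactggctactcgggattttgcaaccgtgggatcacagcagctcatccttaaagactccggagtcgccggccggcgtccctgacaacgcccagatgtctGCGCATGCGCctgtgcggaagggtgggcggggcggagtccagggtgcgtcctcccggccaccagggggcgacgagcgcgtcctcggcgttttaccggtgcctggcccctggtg
Ndufa11: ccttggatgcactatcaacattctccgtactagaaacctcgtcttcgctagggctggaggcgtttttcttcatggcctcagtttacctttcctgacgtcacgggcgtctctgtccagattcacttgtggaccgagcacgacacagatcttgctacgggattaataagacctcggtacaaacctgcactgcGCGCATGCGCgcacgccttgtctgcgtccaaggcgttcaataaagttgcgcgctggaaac
Cox5a: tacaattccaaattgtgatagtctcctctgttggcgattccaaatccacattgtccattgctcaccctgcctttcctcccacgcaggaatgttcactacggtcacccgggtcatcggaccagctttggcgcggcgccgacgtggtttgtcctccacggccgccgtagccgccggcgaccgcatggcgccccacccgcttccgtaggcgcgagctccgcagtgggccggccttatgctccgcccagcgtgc
Cox7a1: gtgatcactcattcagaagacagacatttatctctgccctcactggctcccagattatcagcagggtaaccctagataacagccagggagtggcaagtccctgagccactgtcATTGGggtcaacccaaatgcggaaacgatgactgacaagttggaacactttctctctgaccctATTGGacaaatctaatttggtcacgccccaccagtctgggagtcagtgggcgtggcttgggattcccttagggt
Cox6b2: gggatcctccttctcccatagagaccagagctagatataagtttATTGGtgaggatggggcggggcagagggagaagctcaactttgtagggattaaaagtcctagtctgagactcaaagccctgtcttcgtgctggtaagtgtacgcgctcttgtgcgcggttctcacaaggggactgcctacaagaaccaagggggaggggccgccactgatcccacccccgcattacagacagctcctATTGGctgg
Ndufa6: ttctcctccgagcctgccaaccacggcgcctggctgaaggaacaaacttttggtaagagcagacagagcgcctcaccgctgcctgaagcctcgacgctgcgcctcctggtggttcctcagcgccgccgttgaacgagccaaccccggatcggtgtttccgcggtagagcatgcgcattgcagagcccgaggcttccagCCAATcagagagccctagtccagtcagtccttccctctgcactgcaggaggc

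Promoter windows were found for 76 of the 92 genes, 82 windows in all, and were searched on both strands for 6 motifs of textbook regulators: NRF1 (GCGCA, then any base, then GCGC), a nuclear factor known for respiratory chain promoters, Ets factors such as GABP (CCGGAAG), the E-box (CACGTG), the CCAAT box (CCAAT), the palindromic estrogen response element (GGTCA and TGACC with 3 bases between) and the estrogen-related receptor site (AAGGTCA). The NRF1 letters were found in 15 of the 82 windows (18.3%) and in 3.74% of the 32851 windows of all genes, and the stricter form with T as the middle base in 5 (6.1%) and 0.782%. The Ets letters were in 14 windows (17.1%, against 6.91%), the E-box in 9 (11%, against 6.02%), the CCAAT box in 36 (43.9%, against 33.8%) and the AAGGTCA site in 5 (6.1%, against 4.08%). The estrogen response element was in none, against 0.0639% of all windows. Of the 25 windows of genes called higher under every scaling in both genotypes, 3 held the NRF1 letters (12%), as did 12 of 49 windows (24.5%) of genes in neither stable group and none of 8 windows of the genes called lower. The CCAAT box was in 6 of those 8 windows (75%) and in 8 of the 25 (32%), and the median GC content was 56.8% in the members' windows and 52.4% in all. The matches are letters in a window, described without a test, and the longer form of the AAGGTCA site, preceded by TC, was in 1 member window (1.22%, against 0.387%).

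Complex I, the NADH dehydrogenase that feeds electrons into the chain, had 36 subunits in the test. In WT 26 of them were called higher and 3 lower, and in Arg260 26 and 2. Its median change was 0.47 in WT and 0.44 in Arg260, and 0.08 in both under quantile normalisation, where WT had 14 higher and 14 lower and Arg260 14 and 15. The 7 core subunits, which carry the flavin and the iron-sulfur clusters, were all called higher in both genotypes, with medians of 0.58 and 0.78, and under quantile normalisation WT had 3 higher and 1 lower and Arg260 5 higher and none lower. The 29 accessory subunits split more: WT had 19 higher and 3 lower and Arg260 19 and 2 (medians 0.33 and 0.34), and under quantile normalisation WT had 11 higher and 13 lower and Arg260 9 and 15 (medians -0.11 and -0.16).

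Among complex I subunits the largest called rise was that of Ndufab1, the mitochondrial acyl carrier protein, which is also part of fatty acid synthesis in the organelle. Ndufab1 read -1.44, -1.63, -1.61 and -1.53 in WT PLB and 0.13, 0.06, 0.76 and 0.06 in WT E2, and -1.79, -1.66, -1.69 and -1.27 in Arg260 PLB and 0.84, 0.41, 0.1 and 0.61 in Arg260 E2. All E2 arrays of each genotype lay over all of its PLB arrays, and WT E2 replicate 3 lay above the other WT E2 arrays. Ndufab1 thus changed by 1.81 ± 0.18 in WT and 2.09 ± 0.18 in Arg260 (SE), 3.51-fold and 4.27-fold higher, with adjusted p = 4.7e-07 and 1.01e-07. The accessory subunits Ndufa11 and Ndufb6, both of the membrane arm, followed. Ndufa11 changed by 1.32 ± 0.13 in WT and 1.30 ± 0.13 in Arg260 (SE, adjusted p = 3.78e-07 and 4.37e-07). Ndufb6 changed by 1.12 ± 0.14 in WT and 1.21 ± 0.14 in Arg260 (SE, adjusted p = 8.16e-06 and 3.53e-06). The core subunit Ndufv2, an iron-sulfur protein of the NADH-binding tip, changed by 1.02 ± 0.11 in WT and 1.05 ± 0.11 in Arg260 (SE). All of these were called higher under all 6 scalings in both genotypes.

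Ndufa6, an accessory subunit of the peripheral arm to which an acyl carrier protein binds, moved the other way. In WT the arrays gave Ndufa6 levels of 4.49, 4.61, 4.62 and 4.53 in PLB and 3.55, 3.64, 3.7 and 3.82 in E2, and in Arg260 4.52, 4.57, 4.45 and 4.48 in PLB and 3.54, 3.67, 3.71 and 3.67 in E2. Its E2 arrays lay below its PLB arrays in both genotypes without overlap. This is a change of -0.89 ± 0.068 (SE) in WT and -0.86 ± 0.068 in Arg260, 1.85-fold and 1.81-fold lower (adjusted p = 3.6e-08 and 5.04e-08). Ndufv3, the small accessory subunit beside the flavin site, was lower by a similar amount. Ndufv3 changed by -0.69 ± 0.077 in WT and -0.73 ± 0.077 in Arg260 (SE, adjusted p = 1.92e-06 and 1e-06). Both were called lower under all 6 scalings by their brightest probes. The 3 probes of Ndufv3 gave WT changes of -0.99 to -0.06 and Arg260 changes of -1.02 to 0.15, so that the probes of this gene disagreed. Ndufb11, a membrane arm subunit, was called lower in WT alone, with a change of -0.18 ± 0.070 (SE, adjusted p = 0.0358) and of -0.12 ± 0.070 in Arg260 (adjusted p = 0.161), and its 3 probes ranged from -1.12 to -0.17 in WT. That call was lost under median scaling (-0.03), normexp background (-0.15) and spike-in scaling (-0.14), and when any WT array other than E2 replicate 3 was left out (-0.19 to -0.16), while quantile normalisation called it lower in both genotypes (-0.54 and -0.56), and the difference between genotypes was not called.

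The change of Ndufa8 rests on 1 spot. The level of Ndufa8 was 1.9, -8.16, 1.91 and 1.86 on the WT PLB arrays, 2.29, 2.07, 2.4 and 2.05 on WT E2, 1.86, 1.85, 1.52 and 2.02 on Arg260 PLB and 2.68, 2.52, 1.63 and 1.87 on Arg260 E2. WT PLB replicate 2 was far below the other arrays, and the series table has no value for that probe on that array. The WT change was 2.83 ± 1.66 (SE, adjusted p = 0.152) with that array and 0.31 with the spot left out, an alternative added after the data were seen, and the Arg260 change was 0.36. No other gene of the 90 was below the well-above-background limit on any array.

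Assembly factors build these complexes without staying in them. Of the 10 genes in this group, WT had 7 higher and 3 lower and Arg260 5 and 3, and quantile normalisation gave the same counts in each genotype. Ndufaf4, a complex I assembly factor that was also described as a hormone-regulated proliferation-associated protein, had the largest called change of the 90 genes in both genotypes, but in Arg260 Ndufab1 exceeded it under quantile normalisation (2.12 against 1.86) and in the series table (1.95 against 1.87). Ndufaf4 read 1.63, 1.76, 1.76 and 1.69 in WT PLB and 4.19, 4.16, 4.14 and 4.05 in WT E2, and 1.89, 1.92, 1.97 and 1.72 in Arg260 PLB and 4.1, 4.19, 4.09 and 4.05 in Arg260 E2. The E2 arrays were all far over the PLB arrays, and the spread within each group was small. The change was 2.43 ± 0.067 in WT (SE, 5.37-fold higher, adjusted p = 6.53e-12) and 2.24 ± 0.067 in Arg260 (4.71-fold higher, adjusted p = 1.1e-11). Ndufaf2, which works on a late assembly intermediate, rose as well. Ndufaf2 changed by 1.12 ± 0.076 in WT and 1.16 ± 0.076 in Arg260 (SE, adjusted p = 1.02e-08 and 6.77e-09). Sdhaf1 and Sdhaf2, which serve complex II, rose by 0.82 and 0.48 in WT and by 0.91 and 0.57 in Arg260. Ndufaf1 and Ndufaf3 were called in WT (0.47 and 0.41) and not in Arg260, where their changes were 0.31 and 0.25 (adjusted p = 0.0776 and 0.1), and the difference between genotypes was not called for either. Both were called in Arg260 as well under median scaling (0.45 and 0.39) and spike-in scaling (0.50 and 0.44).

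The remaining genes of this group carry names like those of subunits. Cox4nb, now Emc8, is a subunit of a complex that inserts proteins into the endoplasmic reticulum membrane, and it was higher by 1.55 in WT and 1.51 in Arg260. Atp5sl, now Dmac2, is a complex I assembly factor, and it was lower. In WT the arrays gave Atp5sl levels of 2.91, 2.91, 2.87 and 2.84 in PLB and 1.57, 1.63, 1.64 and 1.69 in E2, and in Arg260 2.75, 2.9, 2.54 and 2.81 in PLB and 1.59, 1.67, 1.61 and 1.57 in E2. No E2 array reached the level of any PLB array in either genotype. Atp5sl thus changed by -1.25 ± 0.072 in WT and -1.14 ± 0.072 in Arg260 (SE), 2.38-fold and 2.21-fold lower, with adjusted p = 1.97e-09 and 4.77e-09. Atp5s, now Dmac2l, changed by -0.71 in WT and -0.58 in Arg260. Cox7a2l, which joins complexes III and IV into supercomplexes and was first described as a gene with an estrogen receptor binding fragment, was lower after E2. The level of Cox7a2l was 6.81, 6.84, 6.84 and 6.73 on the WT PLB arrays, 5.7, 5.68, 5.55 and 5.94 on WT E2, 6.78, 6.8, 6.64 and 6.69 on Arg260 PLB and 5.29, 5.59, 5.68 and 5.54 on Arg260 E2. Its E2 arrays lay below all PLB arrays in both genotypes. This is a change of -1.09 ± 0.093 (SE) in WT and -1.2 ± 0.093 in Arg260, 2.12-fold and 2.3-fold lower (adjusted p = 1.14e-07 and 3.97e-08). Its 3 probes gave -1.24 to -1.08 in WT and -1.38 to -1.2 in Arg260.

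Complex II, succinate dehydrogenase, links the tricarboxylic acid cycle to the chain. All 4 subunits were called higher in both genotypes, with medians of 0.49 in WT and 0.50 in Arg260, whereas under quantile normalisation Sdhb alone was called and the median was 0.03 in WT and -0.02 in Arg260. Sdhb carries the iron-sulfur clusters. Sdhb read 4.31, 4.49, 4.52 and 4.53 in WT PLB and 5.29, 5.4, 5.39 and 5.27 in WT E2, and 4.49, 4.55, 4.25 and 4.76 in Arg260 PLB and 5.52, 5.39, 5.28 and 5.42 in Arg260 E2. Its E2 arrays lay over its PLB arrays throughout. The change was 0.88 ± 0.097 in WT (SE, 1.84-fold higher, adjusted p = 1.68e-06) and 0.89 ± 0.097 in Arg260 (1.85-fold higher, adjusted p = 1.4e-06). The flavoprotein Sdha changed by 0.45 and 0.53, the membrane anchors Sdhc by 0.33 and 0.31 and Sdhd by 0.53 and 0.48, in WT and Arg260 respectively. Under quantile normalisation and in the series table the changes of Sdha lay between -0.01 and 0.01, and Sdhd gave 0.07 and 0.10 for WT, with -0.04 and -0.05 for Arg260.

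Complex III, which passes electrons from ubiquinol to cytochrome c, had the highest median of the 5 complexes, 0.76 in WT and 0.80 in Arg260. Of its 8 genes 7 were called higher in both genotypes, and under quantile normalisation 5 were higher and 1 lower, with medians of 0.33 and 0.31. Uqcrq, a small ubiquinone-binding subunit, led. In WT the arrays gave Uqcrq levels of 4.29, 4.44, 4.29 and 4.21 in PLB and 5.76, 5.81, 5.94 and 5.79 in E2, and in Arg260 4.33, 4.36, 4.26 and 4.63 in PLB and 6.15, 5.91, 5.82 and 5.97 in E2. E2 and PLB arrays did not overlap in either genotype. Uqcrq thus changed by 1.52 ± 0.093 in WT and 1.56 ± 0.093 in Arg260 (SE), 2.86-fold and 2.96-fold higher, with adjusted p = 3.78e-09 and 2.76e-09. The Rieske iron-sulfur protein Uqcrfs1 and the small subunit Uqcrb came next. Uqcrfs1 changed by 0.85 ± 0.12 in WT and 0.97 ± 0.12 in Arg260 (SE, adjusted p = 1.8e-05 and 4.97e-06). Uqcrb changed by 0.80 ± 0.089 in WT and 0.84 ± 0.089 in Arg260 (SE, adjusted p = 1.82e-06 and 9.82e-07). The core proteins Uqcrc1 and Uqcrc2 changed by 0.79 and 0.73 in WT and by 0.80 and 0.80 in Arg260. Uqcrh, the hinge protein next to cytochrome c1, was not called (0.11 and 0.10), and scalings gave it opposite calls. Cyc1, cytochrome c1 itself, lies outside the name rule, and it changed by 1.33 in WT and 1.34 in Arg260.

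**Figure D3:**
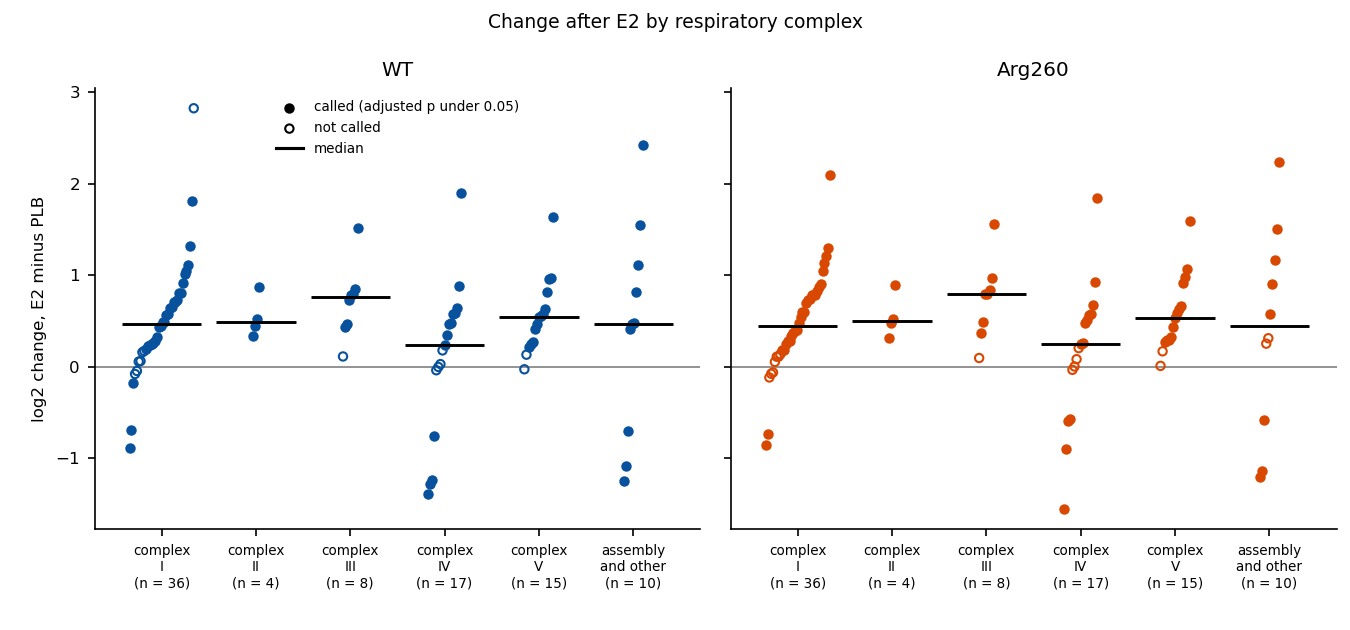
Log2 change after E2 of each of the 90 genes by complex in WT (left) and Arg260 (right), with filled points for called genes, open points for genes not called and a line at the median. Medians were 0.24 to 0.76 in WT and 0.25 to 0.80 in Arg260, complex IV had the lowest and complex III the highest in both, and the open WT point at 2.83 is Ndufa8. Under quantile normalisation the medians of the 5 complexes were 0.03 to 0.33 in WT and -0.02 to 0.31 in Arg260, with complex III still the highest and complex II the lowest.

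Complex IV, cytochrome c oxidase, split by isoform. Of its 11 general subunits 9 were called higher and none lower in both genotypes, with medians of 0.48 and 0.51. Of the 6 tested restricted isoforms none was called higher and 4 were called lower in both, with medians of -0.99 and -0.58. Ndufa4l2, 1 of these 4, was counted as the partner of Ndufa4, and it is known for induction by low oxygen and not as the form of a tissue. Quantile normalisation left 4 general subunits higher and none lower in WT and 3 and 2 in Arg260, and gave the same 4 and 4 calls for the restricted isoforms in WT and Arg260. Spike-in scaling left 4 restricted isoforms lower in WT and 2 in Arg260.

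Cox5a, a nuclear subunit on the matrix side that binds a thyroid hormone metabolite, had the largest rise in complex IV. The level of Cox5a was 4.2, 4.29, 4.2 and 4.34 on the WT PLB arrays, 6.08, 6.21, 6.27 and 6.04 on WT E2, 4.23, 4.25, 4.44 and 4.66 on Arg260 PLB and 6.36, 6.25, 6.09 and 6.28 on Arg260 E2. Every E2 array was over every PLB array by a wide margin. This is a change of 1.90 ± 0.098 (SE) in WT and 1.85 ± 0.098 in Arg260, 3.73-fold and 3.6-fold higher (adjusted p = 6.98e-10 and 8.7e-10). Cox5b, its neighbour in the matrix domain, changed by 0.88 in WT and 0.93 in Arg260, and Arg260 PLB replicate 4, at 4.81, lay over the other Arg260 PLB arrays at 4.37 to 4.44. Cox4i1, the large general subunit that is regulated by ATP, was among the members with the smallest changes. Cox4i1 read 6.42, 6.45, 6.47 and 6.42 in WT PLB and 6.26, 6.5, 6.45 and 6.54 in WT E2, and 6.4, 6.45, 6.33 and 6.6 in Arg260 PLB and 6.39, 6.36, 6.45 and 6.59 in Arg260 E2. The 4 groups overlapped fully. Its change was 0.00 ± 0.079 in both genotypes (SE, adjusted p = 0.988 and 0.970), with 95% intervals of -0.17 to 0.17 in WT and -0.17 to 0.17 in Arg260, and quantile normalisation called it lower in Arg260 at -0.20.

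The general isoforms were higher where the restricted partner was lower in 4 pairs. Cox7a1 is the heart and muscle form of subunit 7a. In WT the arrays gave Cox7a1 levels of -0.47, -0.33, -0.62 and -0.34 in PLB and -2.07, -1.7, -1.64 and -1.91 in E2, and in Arg260 -0.5, -0.37, -0.63 and -0.3 in PLB and -1.98, -1.94, -2.01 and -2.09 in E2. The E2 values lay at least a full log2 unit under the PLB values. The change was -1.39 ± 0.1 in WT (SE, 2.62-fold lower, adjusted p = 2.85e-08) and -1.55 ± 0.1 in Arg260 (2.94-fold lower, adjusted p = 9.11e-09). Its general partner Cox7a2 changed by 0.64 in WT and 0.67 in Arg260, and that call was lost in Arg260 under quantile normalisation (0.18). Cox6b2, the testis form of subunit 6b, was also lower. The level of Cox6b2 was 1.46, 1.53, 1.5 and 1.66 on the WT PLB arrays, 0.32, 0.35, 0.38 and 0.16 on WT E2, 1.59, 1.57, 1.38 and 1.78 on Arg260 PLB and 0.93, 0.47, 0.58 and 0.73 on Arg260 E2. WT E2 arrays lay below Arg260 E2 arrays, and all of them below the PLB arrays. Cox6b2 thus changed by -1.24 ± 0.11 in WT and -0.90 ± 0.11 in Arg260 (SE), 2.36-fold and 1.86-fold lower, with adjusted p = 1.08e-07 and 2.94e-06. Its general partner Cox6b1 changed by 0.35 in WT and 0.27 in Arg260 (adjusted p = 0.00886 and 0.0364), and these calls quantile normalisation (0.15 and 0.01) and the series table (0.17 and 0.02) did not keep. The Arg260 call of Cox6b1 was also lost when any of Arg260 PLB replicates 1, 2 and 3 or Arg260 E2 replicates 1, 2 and 4 was left out, with changes of 0.23 to 0.27.

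Cox8b is the heart and muscle form of subunit 8, a gene also active in brown fat. Cox8b read 0.32, 0.84, 0.19 and 0.2 in WT PLB and -0.81, -0.69, -1.04 and -1.01 in WT E2, and 0.1, 0.06, -0.16 and -0.02 in Arg260 PLB and -0.16, -1.02, -0.53 and -0.69 in Arg260 E2. In WT the E2 and PLB arrays were apart, whereas in Arg260 the E2 replicate 1 value reached the lowest PLB value. This is a change of -1.28 ± 0.17 (SE) in WT and -0.59 ± 0.17 in Arg260, 2.42-fold and 1.51-fold lower (adjusted p = 1.38e-05 and 0.00787). The Arg260 call of Cox8b was lost under spike-in scaling (-0.40) and within slide 1 (-0.67). Its general partner Cox8a changed by 0.24 in WT and 0.25 in Arg260, and was not called under quantile normalisation (0.11 in both). Ndufa4l2, known as a gene induced by low oxygen, changed by -0.75 ± 0.22 in WT and -0.57 ± 0.22 in Arg260 (SE, adjusted p = 0.00822 and 0.0358), and median and spike-in scaling did not call it in Arg260 (-0.43 and -0.38). The Arg260 call of Ndufa4l2 was also lost without Arg260 PLB replicate 4 (-0.37), Arg260 E2 replicate 1 (-0.45), Arg260 PLB replicate 2 (-0.60) or Arg260 E2 replicate 2 (-0.59), and within either slide (-0.63 and -0.51). Its general partner Ndufa4, a complex IV subunit long counted with complex I, changed by 0.59 and 0.51, and was not called under quantile normalisation (0.17 and 0.01). Cox4i2, the lung form of subunit 4 that low oxygen is known to raise, was not called (-0.04 and 0.20; in Arg260 it was called higher, at 0.38, without Arg260 PLB replicate 4), nor was Cox6a2, the muscle form of subunit 6a (0.03 and -0.03), whose partner Cox6a1 changed by 0.48 and 0.57. The general subunit Cox7b changed by 0.58 and 0.56, without a call under quantile normalisation (0.12 and 0.03), and its testis partner Cox7b2 was at background.

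**Figure D4:**
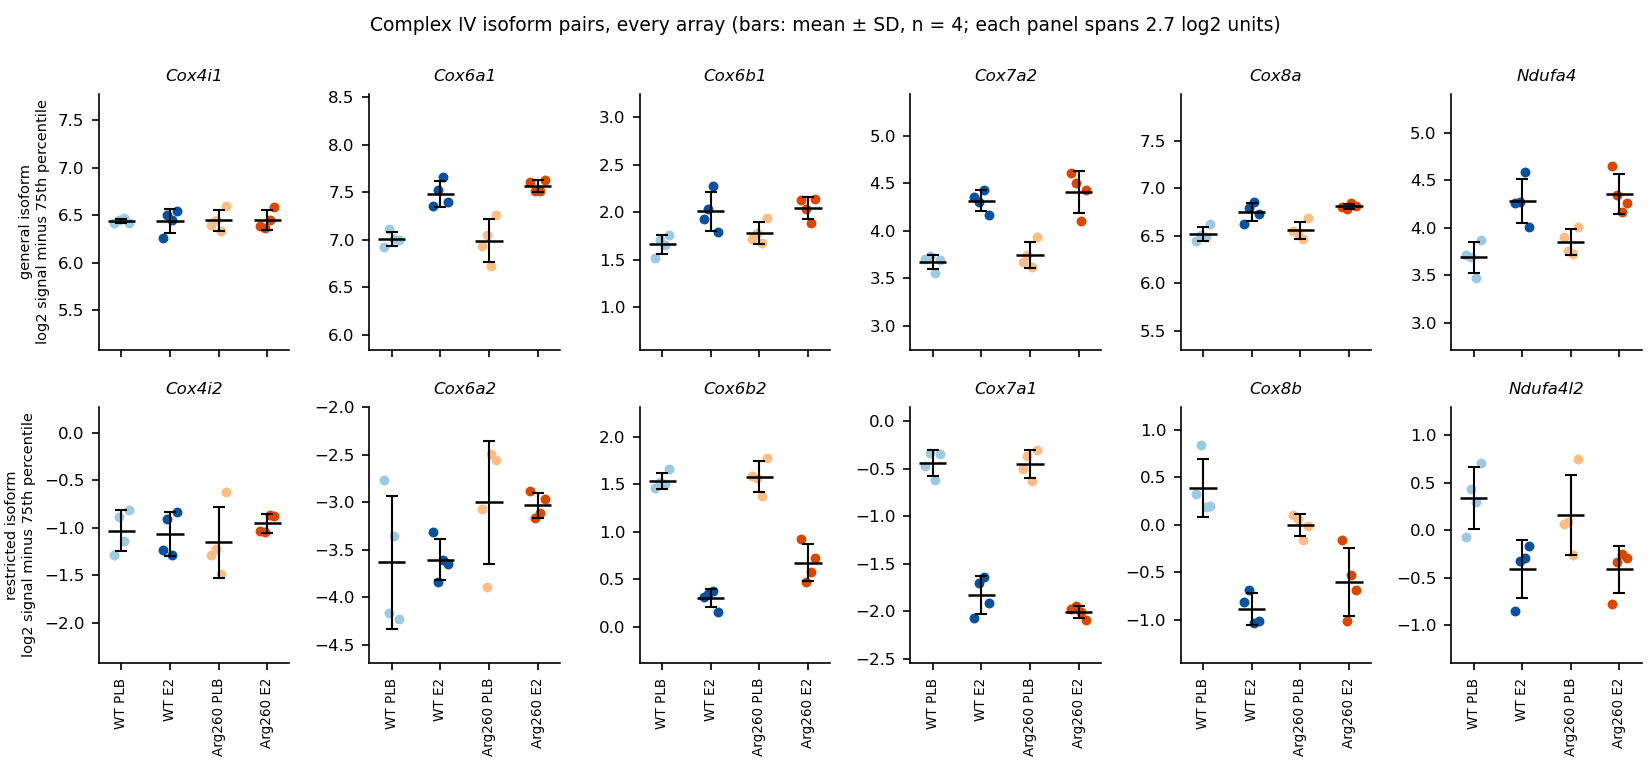
Log2 signal over the array's 75th percentile of 6 complex IV isoform pairs on every array (points, 4 per group), with bars for mean ± SD, the general isoform above and the restricted isoform below. Cox6b2, Cox7a1, Cox8b and Ndufa4l2 are lower in the E2 groups while the partner above is higher, and Cox4i1, Cox4i2 and Cox6a2 show no called change. The general partners Cox6b1, Cox8a and Ndufa4 were not called under quantile normalisation.

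Markers of other cell types were read beside these isoforms. Of all genes tested 31.9% were called higher and 31.7% lower in WT, and 33.6% and 30.7% in Arg260. A mixed split within a short list therefore does not set it apart from all genes. All 10 fat cell markers were called lower in WT after E2, with a median change of -3.64, and 3 of 10 in Arg260, with a median of -1.62. The mean level of the 10 was 0.13 to 1.88 on WT PLB, -3.70 to -0.65 on WT E2, -0.30 to 1.15 on Arg260 PLB and -2.26 to 0.29 on Arg260 E2 arrays. The defining marker Adipoq read 1.09 to 3.03 on WT PLB and -5.91 to 0.18 on WT E2 arrays, and 0.88 to 2.32 and -2.19 to 1.57 in Arg260, and 9 of the 10 markers were well above background on every array of every group. Of 8 tested skeletal muscle markers WT had 4 higher and 2 lower and Arg260 3 and 1, with a mean level of -2.66 to -1.74 over all arrays. Of the 2 tested brown fat markers Cidea was lower in both genotypes (-2.36 and -1.81) and Dio2 higher (2.13 and 2.99). Of 6 stromal markers 4 were lower in each genotype and none higher. Of 5 macrophage markers WT had 1 higher and 2 lower and Arg260 1 and 3, with a mean level of 1.36 to 1.67 on WT PLB, 0.80 to 1.04 on WT E2, 1.36 to 3.31 on Arg260 PLB and 0.89 to 1.21 on Arg260 E2 arrays. Smooth muscle markers, 7 in number, had 3 higher and 1 lower for WT and 1 and 1 for Arg260. For 7 epithelial markers the counts were 2 and 2 in WT, with 4 and 1 in Arg260, and for 5 endothelial markers they were 1 and 2 in WT, with 2 and 0 in Arg260. The part of these cells in the lower Cox8b, Cox7a1 and Cox6b2 signals was not tested. The tissue label was borne out by Hoxa10, Hoxa11, Hoxd10, Esr1, Pgr, Wnt7a and Wnt4, all 7 well above background on every array.

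Complex V had 13 of 15 subunits called higher and none lower in both genotypes, with a median of 0.54 in each. Under quantile normalisation WT had 6 higher and 3 lower and Arg260 5 and 4, with medians of 0.12 and 0.11. The catalytic head subunit Atp5b changed by 0.82 ± 0.10 in WT and 0.92 ± 0.10 in Arg260 (SE), and it was called higher under all 6 scalings, while its partner Atp5a1 changed by 0.41 and 0.54. Atp5a1 was not called under quantile normalisation (0.08 and 0.11) or in the series table (0.07 and 0.07). Of the 4 peripheral stalk subunits the largest change was that of Atp5f1, subunit b, at 0.97 ± 0.13 and 1.07 ± 0.13.

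The ring of subunit c, which turns as protons pass, is made from 3 nuclear genes that encode the same mature protein, and these genes did not change alike. In WT the arrays gave Atp5g1 levels of 4.45, 4.59, 4.47 and 4.6 in PLB and 6, 6.25, 6.31 and 6.1 in E2, and in Arg260 4.54, 4.6, 4.36 and 5.03 in PLB and 6.32, 6.22, 6.05 and 6.3 in E2. The level of Atp5g2 was 6.5, 6.55, 6.56 and 6.47 on the WT PLB arrays, 6.39, 6.57, 6.61 and 6.4 on WT E2, 6.56, 6.46, 6.54 and 6.68 on Arg260 PLB and 6.63, 6.53, 6.46 and 6.67 on Arg260 E2. Atp5g3 read 5.13, 5.23, 5.09 and 5.26 in WT PLB and 6.06, 6.22, 6.3 and 5.97 in WT E2, and 5.11, 5.24, 4.94 and 5.46 in Arg260 PLB and 6.39, 6.14, 6.01 and 6.14 in Arg260 E2. Atp5g1 and Atp5g3 were higher on every E2 array than on every PLB array of the same genotype, and the Atp5g2 groups overlapped. Atp5g1 changed by 1.64 ± 0.12 in WT and 1.59 ± 0.12 in Arg260 (SE, adjusted p = 2.88e-08 and 3.97e-08). Atp5g3 changed by 0.96 ± 0.11 in WT and 0.98 ± 0.11 in Arg260 (SE, adjusted p = 3.47e-06 and 2.62e-06). Atp5g2 changed by -0.03 in WT and 0.01 in Arg260 (SE 0.074, adjusted p = 0.773 and 0.910), and quantile normalisation called it lower in both (-0.17 and -0.15). The second probe of Atp5g1 gave 0.10 in WT and 0.13 in Arg260, against 1.64 and 1.59 by the brightest, so that the probes of this gene disagreed as well. Of the 30 genes with more than 1 probe, 26 had probes within 0.5 log2 units of each other and 4 did not. Probes of opposite direction occurred in 4 genes, only partly the same ones.

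The genotypes did not differ in any respiratory chain gene at the threshold. By limma's test none of the 25892 genes, and so 0% of them, was called in the difference of the E2 responses, in PLB or in E2, whereas 962, 639 and 1902 genes had an unadjusted p under 0.05 (3.72%, 2.47% and 7.35%), among them 2, 2 and 3 of the 90. Of these, 2, 1 and 3 were higher in Arg260, against 2.66%, 0.9% and 4.2% of all genes. Other settings called 0 to 2 genes in E2 and none in the other 2 comparisons, never one of the 90. The median half-width of the 95% interval over the 90 genes was 0.28 for the difference of responses and 0.20 for Arg260 against WT. Changes in WT and Arg260 correlated at 0.91 across the 90 genes and at 0.98 without Ndufa8, as a description, since genes are no independent samples.

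The 2 genes with the lowest unadjusted p in the difference of responses were restricted isoforms. Cox8b fell by 1.28 in WT and by 0.59 in Arg260, a difference of 0.68 with a 95% interval of 0.15 to 1.21 (unadjusted p = 0.0149, not called after adjustment), and its level in PLB differed between Arg260 and WT by -0.39 (unadjusted p = 0.0403). The fat cell markers had the same order, with a median change of -3.64 in WT and -1.62 in Arg260, and their part in this difference was not tested. Cox6b2 differed by 0.34 in response (unadjusted p = 0.0402) and by 0.38 between the E2 groups, with an interval of 0.15 to 0.60 (unadjusted p = 0.00303, adjusted p = 0.454). Ndufaf4 was 0.16 higher in Arg260 PLB (unadjusted p = 0.0281), and Ndufa9 was 0.20 higher in Arg260 E2 (unadjusted p = 0.0376). Arg260 values were above WT for 77 of the 90 genes in E2 (85.6%, against 57.7% of all genes) and for 63 in PLB (70.0%, against 44.9%), by medians of 0.07 and 0.04. In E2 the count was 52 of 90 (57.8%, against 52.2% of all genes) under quantile normalisation and 89 (98.9%, against 85.0%) under spike-in scaling. In PLB it was 71 (78.9%, against 47.3%) and 75 (83.3%, against 52.3%). These counts take genes that share arrays and are no independent samples. The array medians of the 90 genes overlapped between genotypes, at 4.60 to 4.80 in WT E2 and 4.62 to 4.80 in Arg260 E2. They were 4.18 to 4.31 in WT PLB and 4.22 to 4.47 in Arg260 PLB.

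The 13 mitochondrially encoded subunits, which join the nuclear subunits in the same complexes, had median changes near 0. In WT 3 were called higher and none lower, and in Arg260 1 and none, with medians of 0.02 and 0.04, and under quantile normalisation WT had 2 higher and 3 lower and Arg260 1 and 6, with medians of -0.09 and -0.13. ND1, a membrane arm core subunit of complex I, read 2.56 to 2.86 on WT PLB and 3.07 to 3.76 on WT E2 arrays, and 2.65 to 3.09 and 3.40 to 3.73 in Arg260. Its E2 and PLB arrays did not overlap, and it changed by 0.72 ± 0.14 and 0.70 ± 0.14 (SE), with the Arg260 call lost under quantile normalisation (0.32) and in the series table (0.31). ND3 changed by 0.33 in WT (adjusted p = 0.00302) and 0.15 in Arg260 (adjusted p = 0.136), with the opposite sign under quantile normalisation (-0.05 and -0.32) and in the series table (-0.02 and -0.32). COX1, the catalytic subunit of complex IV, changed by 0.02 and -0.05. For CYTB the spot of WT E2 replicate 1 was marked as an outlier and left out.

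Nuclear genes of the wider organelle were read in the same fit, in which 31.9% of all genes were higher and 31.7% lower in WT. In Arg260 these shares were 33.6% and 30.7%. Of 30 genes of import, chaperones and proteases 28 were higher and 1 lower in both genotypes. Their medians were 1.14 and 1.15, and 0.76 and 0.78 under quantile normalisation. Timm8a1 changed by 2.52 and 2.49 and Hspa9, the import motor chaperone, by 2.17 and 2.21. Of 76 mitochondrial ribosomal protein genes WT had 64 higher and 2 lower and Arg260 67 and 2 (medians 0.74 and 0.76), and 53 and 7 in both under quantile normalisation. Mrpl12 and Mrps7 led the called genes with 1.92 and 1.91 in WT, and Mrpl34 changed by -1.30. Of 18 genes of the tricarboxylic acid cycle and pyruvate dehydrogenase WT had 15 higher and 1 lower and Arg260 15 and 2, Idh3a at 2.00 and 2.02 and Idh2 at -1.09 and -1.13. Among 25 further assembly factors 16 were higher and 3 lower in WT, with Sco2, the copper carrier for complex IV, at 1.89.

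The mobile electron carriers link the complexes. Cycs, the somatic cytochrome c that carries electrons from complex III to complex IV, changed by 2.78 ± 0.15 in WT and 2.68 ± 0.15 in Arg260 (SE, 6.86-fold and 6.39-fold), and Coq10b, a coenzyme Q binding protein, by 2.75 and 2.71. In that list of 22 genes WT had 13 higher and 4 lower, against 31.9% and 31.7% of all genes. Arg260 had 13 and 5, against 33.6% and 30.7%. Among the lower ones were the coenzyme Q synthesis gene Coq9 (-0.64 and -0.52) and the uncoupling protein Ucp3 (-0.56 and -0.67). The WT call of Ucp3 was lost under median scaling (-0.42), spike-in scaling (-0.52), in the series table (-0.44), and when PLB replicate 4 (-0.48) or E2 replicate 1 (-0.47) of WT was left out. In Arg260 Ucp3 read 0.69 on PLB replicate 3 and -0.31 to -0.04 on the other PLB arrays, its change was -0.44 without that array, and its call was lost under spike-in scaling (-0.48).

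Of 14 nuclear regulators of mitochondrial genes WT had 8 higher and 1 lower and Arg260 7 and 1. The coactivator Pprc1 changed by 2.57 and 2.20 and the corepressor Nrip1 by 2.31 and 2.27, whereas Ppargc1a, the coactivator best known for raising respiratory genes in fat and muscle, changed by -2.82 and -3.35. Nrf1, whose motif was searched above and which was named after its values were seen, changed by 1.14 and 1.21, and Gabpa by -0.07 and 0.04 without a call. Of 13 genes of mitochondrial DNA maintenance and transcription WT had 6 higher and 5 lower and Arg260 7 and 5. This mixed split does not set that list apart from all genes. Polrmt, the mitochondrial RNA polymerase, changed by 1.06 and 1.19. Polg2, a DNA polymerase subunit, changed by -1.42 and -1.25 and Mterfd3 by -2.92 and -2.95.

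**Figure D5:**
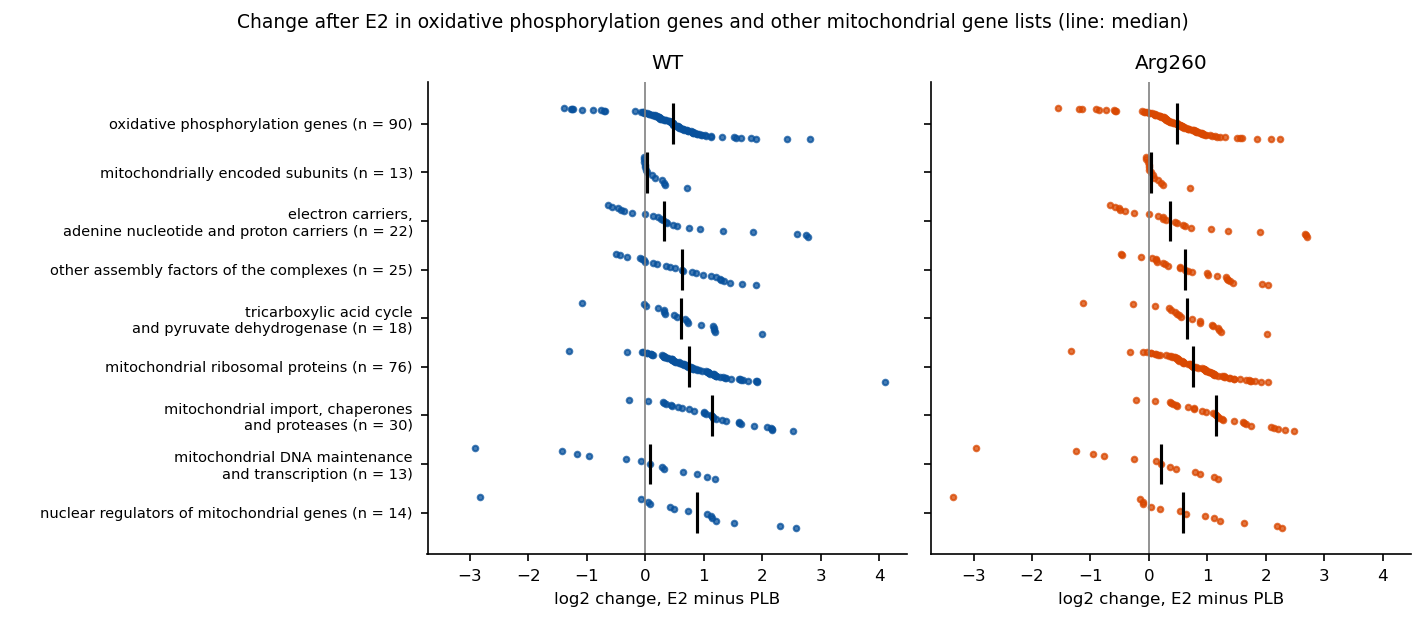
Log2 change after E2 (points, 1 per gene) in the 90 oxidative phosphorylation genes and 8 other mitochondrial lists, with a line at each median, WT left and Arg260 right. Medians in WT run from 0.02 for mitochondrially encoded subunits to 1.14 for import and chaperones, and under quantile normalisation from -0.09 to 0.78. The WT point at 4.11 is Mrpl51, which was not called in WT and whose change in Arg260 was 1.13. What sets the WT value apart was not tested.

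Within slide 1, which holds replicates 1 and 2 of each group, WT had 51 genes higher and 9 lower and Arg260 59 and 6, while over all 25892 genes WT had 6919 and 6990 and Arg260 7653 and 6849. Within slide 2, with replicates 3 and 4, the counts were 44 and 8 for WT and 35 and 8 for Arg260, and over all genes 5897 and 5507 for WT and 6060 and 5189 for Arg260. The median change of complex I was 0.42 and 0.46 in WT and 0.62 and 0.38 in Arg260 within slides 1 and 2. With slide as a block WT had 66 genes higher and 10 lower and Arg260 65 and 9.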

How the data were processed

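Per the labels and file headers, RNA of each uterus sample was labelled with Cy3 and hybridised to Agilent mouse arrays (probe positions mm9), and the deposited intensity is the processed signal of Agilent Feature Extraction 10.10.1.1. The submitters' series table gives 37585 probes as deposited log2 values, made with limma per the submitters' processing notes. It lacks values for 228 probes on WT PLB replicate 2.

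From the intensity, outlier spots were left out, spots of a probe were averaged, and log2 signal minus each array's 75th percentile was taken. Probes exceeding background clearly on 4 or more of 16 arrays were kept (38683), and the brightest per gene name gave 25892 genes. Group means were fitted with limma 3.58.1 in R 4.3.3 (12 residual and 1.97 prior degrees of freedom), with Benjamini-Hochberg adjustment over all genes, and the steps were tested on simulated data. The members and lists were chosen with earlier results of these data known. Genes were named by rule: the 3 called members with the largest rise and fall per complex and genotype, and all isoform pairs. Of the most changed genes of the further lists only a part was named. Ndufa8, Ndufa9, Ndufv2, Ndufaf1, Ndufaf3, Sdhaf1, Sdhaf2, Sdhc, Uqcrc1, Uqcrc2, Uqcrh, Atp5a1, Atp5b, Cyc1, COX1, CYTB, Nrf1, Gabpa and Mrpl51 were named after their values were seen. Alternatives were median, quantile, normexp (offset 50) and spike-in scaling, the series table, other filters, probe means, a trended robust prior, slide and replicate blocks, and arrays left out in turn. 1 member counted in all totals is not reported by name here. Promoter windows came from RefSeq, GRCm38.p6.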

Additional observations from a re-analysis of the deposited data

Results flagged for a closer look

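In 6 of 176 groups of 4 arrays, over 44 named genes and medians, the highest or lowest array lay apart from the other 3, and chance alone marks about 1 group in 20. Cox5b read 4.81 on Arg260 PLB replicate 4 against 4.37 to 4.44 on the others, Ndufa11 2.35 on the same array against 1.74 to 1.82, and Ndufv3 5.44 on it against 5.25 to 5.27. Ndufab1 read 0.76 on WT E2 replicate 3 against 0.06 to 0.13. The median of complex V was 5.71 on Arg260 E2 replicate 1 against 5.53 to 5.54. Ndufa8 read -8.16 on WT PLB replicate 2 against 1.86 to 1.91.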

How the results depend on the processing

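Under every alternative run, more of the 90 genes were called higher than lower after E2 in both genotypes, but the balance moved. Quantile normalisation gave 37 higher and 25 lower genes for WT (all genes: 30.9% and 33.9%) and 33 and 29 for Arg260 (31.7% and 33.5%). The submitters' values gave 36 and 22 in WT (32.1% and 33.9%) and 32 and 27 in Arg260 (32.7% and 33.9%), and the cause was not tested. In Arg260 the members' shares under both settings lay near those of all genes. Within slide 2, 43 genes were called in Arg260, 35 of them higher, with fewer arrays in the fit. Under median scaling the medians were 0.61 for complex I, 0.64 for complex II, 0.91 for complex III, 0.38 for complex IV, 0.69 for complex V, 0.62 for assembly genes, 0.17 for mitochondrially encoded subunits, 0.76 for the tricarboxylic acid cycle, 0.89 for ribosomal proteins, 1.28 for import, 0.23 for mitochondrial DNA genes and 1.04 for regulators in WT. The same setting gave 0.58 for complex I, 0.64 for complex II, 0.94 for complex III, 0.39 for complex IV, 0.67 for complex V, 0.58 for assembly genes, 0.17 for mitochondrially encoded subunits, 0.78 for the tricarboxylic acid cycle, 0.89 for ribosomal proteins, 1.29 for import and 0.34 for mitochondrial DNA genes in Arg260. Under quantile normalisation the medians were 0.076 for complex I, 0.034 for complex II, 0.33 for complex III, 0.11 for complex IV, 0.12 for complex V, 0.15 for carriers, 0.25 for the tricarboxylic acid cycle, 0.48 for ribosomal proteins, 0.76 for import and -0.089 for mitochondrial DNA genes in WT. The same setting gave 0.083 for complex I, -0.019 for complex II, 0.31 for complex III, 0.0080 for complex IV, 0.11 for complex V, -0.13 for mitochondrially encoded subunits, 0.15 for carriers, 0.31 for the tricarboxylic acid cycle, 0.46 for ribosomal proteins, 0.78 for import and -0.0088 for mitochondrial DNA genes in Arg260. In the series table the medians were 0.059 for complex I, 0.055 for complex II, 0.30 for complex III, 0.082 for complex IV, 0.096 for complex V, 0.45 for other assembly factors, 0.22 for the tricarboxylic acid cycle, 0.53 for ribosomal proteins, 0.76 for import and -0.11 for mitochondrial DNA genes in WT. The same setting gave 0.072 for complex I, -0.032 for complex II, 0.30 for complex III, 0.030 for complex IV, 0.066 for complex V, 0.31 for assembly genes, -0.20 for mitochondrially encoded subunits, 0.16 for carriers, 0.43 for other assembly factors, 0.32 for the tricarboxylic acid cycle, 0.45 for ribosomal proteins, 0.82 for import, -0.0074 for mitochondrial DNA genes and 0.43 for regulators in Arg260. With normexp background the medians were 0.48 for other assembly factors and 0.62 for regulators in WT. The same setting gave 0.37 for regulators in Arg260. With spike-in scaling the medians were 0.63 for complex I, 0.69 for complex II, 0.99 for complex III, 0.44 for complex IV, 0.73 for complex V, 0.63 for assembly genes, 0.23 for mitochondrially encoded subunits, 0.56 for carriers, 0.81 for other assembly factors, 0.83 for the tricarboxylic acid cycle, 0.95 for ribosomal proteins, 1.34 for import, 0.39 for mitochondrial DNA genes and 0.78 for regulators in Arg260. Within slide 1 the medians were 0.38 for assembly genes, 1.05 for import and 1.13 for regulators in WT. The same setting gave 0.62 for complex I, 0.59 for complex II, 0.61 for assembly genes and 0.90 for ribosomal proteins in Arg260. Within slide 2 the medians were 0.56 for assembly genes in WT. The same setting gave 0.42 for complex II and 0.32 for mitochondrial DNA genes in Arg260. With genes above background on all arrays the medians were 1.05 for regulators in WT. With the mean of probes the medians were 0.74 for regulators in Arg260. Without both arrays that stood apart the medians were 0.45 for complex V and 0.35 for regulators in Arg260. With 1 array left out at a time, the higher genes numbered 63 to 67 in WT and 62 to 65 in Arg260, and the lower ones 9 to 10 and 8 to 10. The median of the regulators ranged from 0.70 to 0.99 in WT and from 0.35, without Arg260 PLB replicate 3, to 0.78 in Arg260, that of complex V in Arg260 from 0.45 to 0.61 and that of assembly genes in Arg260 from 0.39 to 0.58. In the Arg260 against WT comparison in E2, the number of genes called over all genes was 1 under quantile normalisation and 2 with normexp background, in the series table, with genes above background on all arrays and with a trended robust prior, and ranged from 0 to 2 with 1 array left out. Single genes that changed direction included Atp5g2 in Arg260 (-0.15 under quantile normalisation and -0.19 in the series table) and Cox4i1 in Arg260 (-0.20 under quantile normalisation). Under the same 2 settings they included ND3 in WT (-0.052 and -0.016) and in Arg260 (-0.32 and -0.32) and Sdhd in Arg260 (-0.042 and -0.049). Sdha in Arg260 gave -0.014 in the series table. Over all alternatives Ndufb11 in Arg260 reached 0.075, Atp5g2 in WT 0.12 and Cox4i2 in WT 0.11. Ndufa8 in Arg260 went down to -0.019. Replicate numbers did not pair the arrays: same-numbered arrays of different groups correlated at -0.11 to 0.26 in their deviations (24 pairs, 3 over 0.1), and 5 of 16 arrays correlated best with their own number. With the replicate number as a block, WT had 65 higher and 10 lower genes and Arg260 64 and 9, and of the named genes only Cox6b1 in Arg260 lost its call. Precision is limited by 4 arrays per group.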

Other observations

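Across the 89 genes other than Ndufa8, the size of the WT change and the mean level correlated at r = -0.25, as a description across genes that share arrays. Cox6a2 read higher in Arg260 PLB than in WT PLB by 0.63 without a call (unadjusted p = 0.0730).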
